A study of Mus musculus with 4 samples.

Results

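The 930 regions described here are the autosomal regions of a whole-genome bisulfite table that carry the name of a vomeronasal receptor gene, Vmn1r or Vmn2r, out of 849172 regions in the table. They were chosen by gene name and chromosome alone, and 2 further vomeronasal regions on the X chromosome were left out. Vmn1r names took 275 regions over 197 genes, and Vmn2r names took 655 regions over 121 genes. Of the 318 names, 314 are protein coding and 4 are pseudogenes in RefSeq, whose autosomal set holds 623 vomeronasal receptor genes and pseudogenes in all. The regions lie on 10 chromosomes, with 411 of them (44.2%) on chromosome 7.

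DNA came from the CA1 field of the hippocampus of C57B6/J mice aged 117 days, in 4 libraries. Of these, 2 are labelled Tet2+f_Camk2aCre (the Cre libraries here) and 2 are labelled Tet2+f. Tet2 encodes a dioxygenase that oxidises 5-methylcytosine, and the series text describes the tissue as haploinsufficient for Tet2 in glutamatergic cells. Both groups carry the Tet2+f allele state, which the labels do not spell out, and the Cre group carries in addition Cre under Camk2a, a gene of excitatory forebrain neurons. No library has Cre without Tet2+f, so the dose of Tet2 and the Cre transgene cannot be told apart. CA1 tissue also holds glia and other neurons, so each level is an average over cells with and without Cre. Bisulfite sequencing reads 5-methylcytosine and 5-hydroxymethylcytosine alike. Nothing in the labels says whether replicates were separate animals or pools, so the p-values rest on the spread among these 4 libraries alone, and that spread may be a technical one.

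Vomeronasal receptors are G protein-coupled receptors through which the sensory neurons of the vomeronasal organ detect pheromones and other social odours. Vmn1r genes encode V1R receptors, which have a short extracellular end, signal with the G protein subunit encoded by Gnai2 and respond to small molecules such as steroids. Vmn2r genes encode V2R receptors, which have a large extracellular domain, signal with the subunit encoded by Gnao1 and respond to peptides and proteins. Both families grew by gene duplication in rodents and lie in clusters of similar copies and pseudogenes, and a vomeronasal neuron is known to use few of them at a time. CA1 is not a tissue in which they are known to act.

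The start sequences that the later results turn on are printed here, each covering 250 bases before to 50 bases after a gene start in RefSeq GRCm38.p6, 5′ to 3′ on the gene's strand, with every CG dinucleotide in capitals. CG is the site at which bisulfite levels are commonly read. How cytosines were averaged into the percent value of a region could not be worked out. Both RefSeq starts of Vmn2r29 are shown because 1 of them lies in the least methylated Vmn2r region and the other does not. Vmn1r90 is shown because the least methylated Vmn1r regions carry its name, Vmn2r118 because its regions were lower in the Cre libraries over much of the gene, and Vmn2r33 and Vmn1r135 as starts that another receptor gene shares base for base.
Vmn2r29, CG-rich start, chr7:7278240-7278539, minus strand: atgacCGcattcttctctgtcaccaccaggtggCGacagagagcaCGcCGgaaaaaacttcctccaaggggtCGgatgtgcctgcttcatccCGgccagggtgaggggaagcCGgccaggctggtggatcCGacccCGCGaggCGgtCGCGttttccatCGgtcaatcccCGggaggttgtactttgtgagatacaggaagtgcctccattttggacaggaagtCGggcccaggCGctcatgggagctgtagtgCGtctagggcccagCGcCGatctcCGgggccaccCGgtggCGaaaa
Vmn2r29, second start, chr7:7247279-7247578, minus strand: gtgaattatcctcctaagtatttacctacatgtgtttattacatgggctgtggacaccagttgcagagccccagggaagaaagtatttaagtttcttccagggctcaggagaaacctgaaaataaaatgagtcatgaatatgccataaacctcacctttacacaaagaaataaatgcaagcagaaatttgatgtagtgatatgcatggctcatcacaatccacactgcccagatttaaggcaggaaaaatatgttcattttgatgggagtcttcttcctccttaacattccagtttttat
Vmn1r90, chr7:14562122-14562421, minus strand: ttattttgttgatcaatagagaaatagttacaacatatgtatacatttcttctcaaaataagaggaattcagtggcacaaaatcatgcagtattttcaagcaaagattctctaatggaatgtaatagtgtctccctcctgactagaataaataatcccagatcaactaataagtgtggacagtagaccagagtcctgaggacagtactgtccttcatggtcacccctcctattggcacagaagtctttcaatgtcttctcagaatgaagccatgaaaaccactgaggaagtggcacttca
Vmn2r118, chr17:55624623-55624922, minus strand: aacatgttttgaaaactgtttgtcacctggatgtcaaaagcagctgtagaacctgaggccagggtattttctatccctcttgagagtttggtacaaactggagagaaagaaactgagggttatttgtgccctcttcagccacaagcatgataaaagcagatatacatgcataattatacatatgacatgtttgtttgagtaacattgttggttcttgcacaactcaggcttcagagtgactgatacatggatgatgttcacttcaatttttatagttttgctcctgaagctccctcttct
Vmn2r33, chr7:7566737-7567036, minus strand: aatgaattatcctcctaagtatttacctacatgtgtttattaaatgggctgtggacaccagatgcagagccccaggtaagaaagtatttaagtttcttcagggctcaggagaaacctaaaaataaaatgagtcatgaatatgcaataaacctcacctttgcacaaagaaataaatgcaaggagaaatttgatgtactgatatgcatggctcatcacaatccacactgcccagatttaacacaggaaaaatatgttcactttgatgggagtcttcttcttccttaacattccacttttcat
Vmn1r135, chr7:21832101-21832400, plus strand: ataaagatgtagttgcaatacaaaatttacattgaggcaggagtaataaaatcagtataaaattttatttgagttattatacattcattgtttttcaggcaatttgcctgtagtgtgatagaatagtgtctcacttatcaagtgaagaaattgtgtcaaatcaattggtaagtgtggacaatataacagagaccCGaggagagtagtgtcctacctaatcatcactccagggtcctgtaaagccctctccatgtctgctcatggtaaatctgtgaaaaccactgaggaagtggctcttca
The start of Vmn2r29 at the right-hand end of the gene holds 23 CG dinucleotides, whereas its second start and those of Vmn1r90, Vmn2r118 and Vmn2r33 hold 0. The Vmn1r135 start holds 1. The Vmn2r33 sequence is identical to that of Vmn2r31, and the Vmn1r135 sequence is identical to that of Vmn1r163.

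Apart from that Vmn2r29 start, vomeronasal receptor starts were poor in CG. Over the 323 autosomal receptor starts in the RefSeq table, the median was 1 CG in 300 bases and 78 starts (24.15%) had none. Vmn2r29 was the 1 receptor start with 10 or more (0.310%), against 43.5% of all 32851 starts in the table and 0.211% of those of Olfr genes, the olfactory receptors. Median GC content was 36.7% in the receptor starts and 52.7% in all starts. The letters TATAAA, searched on both strands, stood in 114 receptor starts (35.3%), in 41.0% of Olfr starts and in 13.6% of all starts. The share was 42.2% in Vmn1r starts and 23.1% in Vmn2r starts.

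Vomeronasal receptor regions were highly methylated in CA1 DNA. The mean over the 275 Vmn1r regions was 74.3% and 73.9% in the Cre libraries, against 74.0% and 74.7% in the Tet2+f libraries. The mean over the 655 Vmn2r regions was 77.4% and 77.0% in the Cre libraries, against 77.7% and 78.0% in the Tet2+f libraries. The families stood 3.32 points apart over the 4 libraries, and every library had Vmn2r above Vmn1r. The size of the gap depended on length, and in regions of 5 to 10 kb, the class that holds most receptor regions, it was not seen. Among regions of 5 to 10 kb, 171 Vmn1r regions averaged 75.4% and 75.4% in the Cre libraries, against 75.6% and 76.1% in the Tet2+f libraries. In that same class, 393 Vmn2r regions averaged 75.4% and 75.2% in the Cre libraries, against 75.8% and 76.1% in the Tet2+f libraries. The families' means there differed by -0.0169 points, Vmn2r minus Vmn1r. At 2 to 5 kb the Vmn2r mean stayed above the Vmn1r mean, by 2.72 points over the 4 libraries.

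Receptor regions are long for this table. Their median length was 6166 bp (quartiles 4458.5 and 7647 bp), against 2524 bp for the other autosomal regions outside the olfactory receptors, and they ran between 120 and 71104 bp. The level fell with length in both families. Between 1 and 20 kb, Spearman's rho of length and level was -0.239 over 256 Vmn1r regions and -0.452 over 632 Vmn2r regions. Olfr regions had a rho of -0.408 over 1517 regions, and the other autosomal regions had 0.0332 over 720173. These are descriptions over regions of the same 4 libraries, and neighbouring regions of a gene or cluster are not independent.

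**Figure D1:**
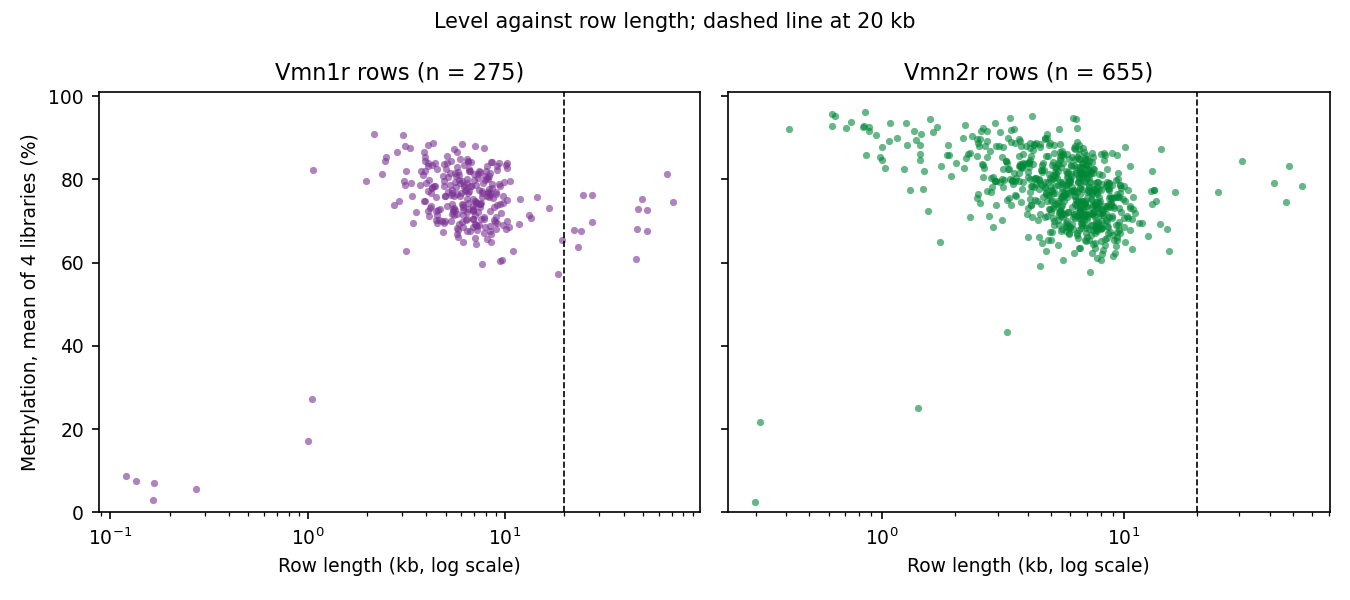
Methylation level (%, mean of the 4 libraries) of each vomeronasal receptor region against its length in kb on a log axis, Vmn1r on the left and Vmn2r on the right, with a dashed line at 20 kb. The main cloud slopes down with length, and the 11 regions under 50% are all shorter than 5 kb.

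By length class, Vmn2r regions of 2 to 5 kb (n = 179) averaged 81.0% and 80.3% in the Cre libraries, against 81.2% and 81.6% in the Tet2+f libraries. Vmn2r regions of 10 to 20 kb (n = 32) averaged 73.6% and 73.2% in the Cre libraries, against 73.2% and 73.8% in the Tet2+f libraries. The step between these length classes, over 7 points, was larger than any gap between libraries within a class. Vmn1r regions moved the same way, with 78.9% and 77.6% in the Cre libraries, against 78.0% and 78.6% in the Tet2+f libraries, at 2 to 5 kb (n = 64). At 10 to 20 kb (n = 17), Vmn1r regions averaged 72.2% and 74.0% in the Cre libraries, against 72.0% and 71.8% in the Tet2+f libraries.

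Set beside other autosomal regions of their own length, receptor regions were less methylated in each class from 2 kb upward, and more methylated in the shorter classes. At 1 to 2 kb, 32 receptor regions averaged 79.6% over the 4 libraries, against 76.8% for other autosomal regions. In the class of 5 to 10 kb, the 564 receptor regions averaged 75.4% and 75.2% in the Cre libraries, against 75.7% and 76.1% in the Tet2+f libraries. The 99694 other autosomal regions of that class averaged 82.7% and 82.5% in the Cre libraries, against 82.6% and 82.9% in the Tet2+f libraries. The 905 Olfr regions of that class lay between them, at 79.3% and 79.1% in the Cre libraries, against 79.2% and 79.6% in the Tet2+f libraries. Over all lengths the order against other autosomal regions turned round, with receptor regions 0.786 points above them as a plain mean. That direction belonged to the plain mean, since the difference was -6.30 points between medians, -5.34 points weighted by length and -2.29 points without regions holding an exact 0% or 100%. Other autosomal regions under 1 kb averaged 32.9% and 32.8% in the Cre libraries, against 32.7% and 32.7% in the Tet2+f libraries, and there were 83142 of them. Receptor regions under 1 kb numbered 22, of which 17 were Vmn2r and 5 Vmn1r. They averaged 65.0% over the 4 libraries, with the Vmn2r regions at 82.3% and the Vmn1r regions at 6.42%.

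**Figure D2:**
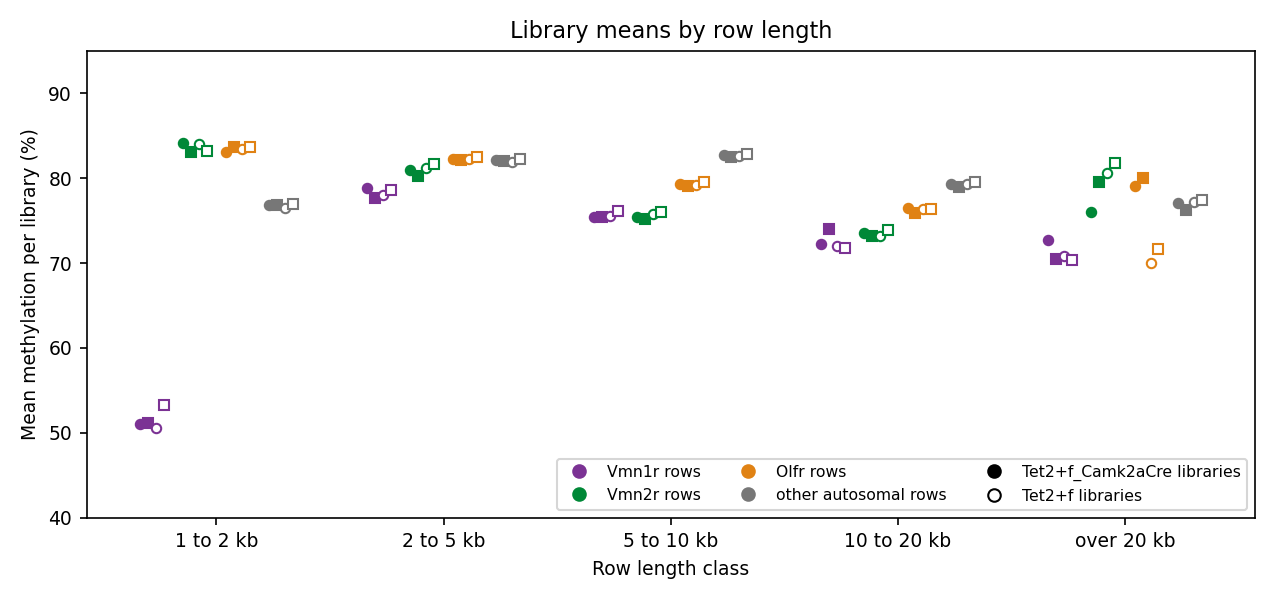
Mean methylation (%) of each library by region length class, for Vmn1r, Vmn2r, Olfr and other autosomal regions, with filled symbols for Tet2+f_Camk2aCre and open symbols for Tet2+f, circles for replicate 1 and squares for replicate 2. From 2 to 20 kb, receptor regions fall below other autosomal regions as length grows; the low Vmn1r point at 1 to 2 kb rests on 4 regions, and regions under 1 kb are not drawn.

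Levels also differed between subfamilies and clusters. Vmn2r1 to Vmn2r7, which form family C of the V2Rs and are known to be expressed together with other V2Rs in the same neurons, lie on chromosome 3 and were more methylated than the rest of their family. The 67 regions with their names averaged 84.4% and 84.5% in the Cre libraries, against 85.0% and 84.9% in the Tet2+f libraries. Of the 67, 30 are named Vmn2r7 but lie off that gene's RefSeq position, and regions on the genes were not averaged apart. The 588 other Vmn2r regions averaged 76.6% and 76.2% in the Cre libraries, against 76.8% and 77.2% in the Tet2+f libraries. The gap held in regions of 5 to 10 kb. In regions of 5 to 10 kb, family C averaged 82.8% and 83.2% in the Cre libraries, against 83.2% and 82.8% in the Tet2+f libraries. Other Vmn2r regions of that length averaged 74.6% and 74.4% in the Cre libraries, against 75.02% and 75.4% in the Tet2+f libraries. The level of regions with family C names was thus close to that of other autosomal regions of the same length. The rest of the Vmn2r family was lower as a whole. High levels were not confined to family C, as the 15 Vmn2r regions at chr10:130379446-130503173 averaged 85.7% and 85.7% in the Cre libraries, against 86.8% and 86.0% in the Tet2+f libraries.

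Regions holding a receptor gene's RefSeq start were also highly methylated, at a mean slightly below that of the rest of the gene. The 304 such regions averaged 74.9% and 74.95% in the Cre libraries, against 75.4% and 75.9% in the Tet2+f libraries. The 563 regions over the rest of the named genes averaged 77.7% and 77.1% in the Cre libraries, against 77.6% and 78.0% in the Tet2+f libraries. At 5 to 10 kb these positions came within 1 point of each other in each library. At 2 to 5 kb the start regions averaged 78.3% and 77.3% in the Cre libraries, against 78.6% and 78.3% in the Tet2+f libraries. Regions over the rest of the gene had 80.7% and 79.8% in the Cre libraries there, against 80.4% and 81.2% in the Tet2+f libraries. The median length of start regions was 6958 bp, so these are not levels of the starts alone. A further 63 regions carry a receptor name but lie off that gene's RefSeq position, and 30 of them are named Vmn2r7.

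Receptors with known ligands, named here for that knowledge and outside the rule for named regions, lay within the range of their families. Vmn1r49, which in the mouse responds to 2-heptanone, had 1 region, at 71.1% and 70.8% in the Cre libraries, against 75.8% and 69.8% in the Tet2+f libraries. Vmn1r89, a receptor of sulfated steroids, had 1 region, at 87.5% and 74.8% in the Cre libraries, against 85.9% and 84.8% in the Tet2+f libraries. In both genes the groups overlapped. Vmn2r26, a receptor of peptides, averaged 82.1% and 83.5% over its 7 regions in the Cre libraries, against 82.4% and 81.3% in the Tet2+f libraries. Vmn2r116, the receptor of the male tear peptide ESP1, averaged 70.2% and 65.5% over its 4 regions in the Cre libraries, against 69.0% and 68.6% in the Tet2+f libraries. These genes overlapped between groups as well, and Vmn2r116 was the least methylated of the 4.

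Of the 930 regions, 11 lay under 50% and 7 of those under 20%, and they carry 3 gene names. The Vmn2r29 region over the CG-rich start printed above, at chr7:7278235-7278533 (299 bp), had 2.45% and 2.995% in the Cre libraries, against 3.61% and 1.23% in the Tet2+f libraries. All 4 libraries were near 0 there. The next region (314 bp) had 18.1% and 34.5% in the Cre libraries, against 12.5% and 22.1% in the Tet2+f libraries. The following region (1404 bp) had 23.5% and 24.97% in the Cre libraries, against 19.7% and 31.8% in the Tet2+f libraries. The last of these (3287 bp) had 40.8% and 44.3% in the Cre libraries, against 40.8% and 47.2% in the Tet2+f libraries. The groups overlapped in each of these regions. The second RefSeq start of Vmn2r29, printed above with 0 CG, lay in a region at 84.9% and 80.9% in the Cre libraries, against 84.4% and 85.3% in the Tet2+f libraries. So the 299 bp region over 1 start of this gene lay under 4% in every library. The 6700 bp region that holds the other start lay above 80% in every library. As that start has 0 CG, the value of the longer region is not a level of the start itself.

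Another 6 of the low regions carry the name Vmn1r90 and lie side by side at chr7:14621403-14623333. In RefSeq they lie over Nlrp5-ps, a transcribed pseudogene at chr7:14530654-14623066, and the last of them runs past its end. They do not lie over Vmn1r90 itself, at chr7:14561242-14562171. The lowest of them (164 bp) had 3.20% and 3.12% in the Cre libraries, against 1.02% and 4.36% in the Tet2+f libraries. The region of 167 bp had 6.12% and 0% in the Cre libraries, against 0% and 22.6% in the Tet2+f libraries. The first and longest of the 6 (1046 bp) had 23.7% and 21.8% in the Cre libraries, against 28.1% and 34.9% in the Tet2+f libraries. In that longest region both Cre libraries were below both Tet2+f libraries, and in the other 5 the groups overlapped. The region over Vmn1r90 itself, whose start is printed above, had 75.2% and 67.0% in the Cre libraries, against 66.9% and 70.8% in the Tet2+f libraries. So the 5 Vmn1r regions under 1 kb, which are all named Vmn1r90, lie over no receptor gene of RefSeq. The last low region, singled out after its values were seen, is named Vmn1r4 (1002 bp, on chromosome 6) and had 15.5% and 19.6% in the Cre libraries, against 16.5% and 16.7% in the Tet2+f libraries. It begins 37 bp beyond the RefSeq end of Nt5c3, a nucleotidase gene on the minus strand, and so next to that gene's start, while RefSeq places it inside Vmn1r4 as well.

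**Figure D3:**
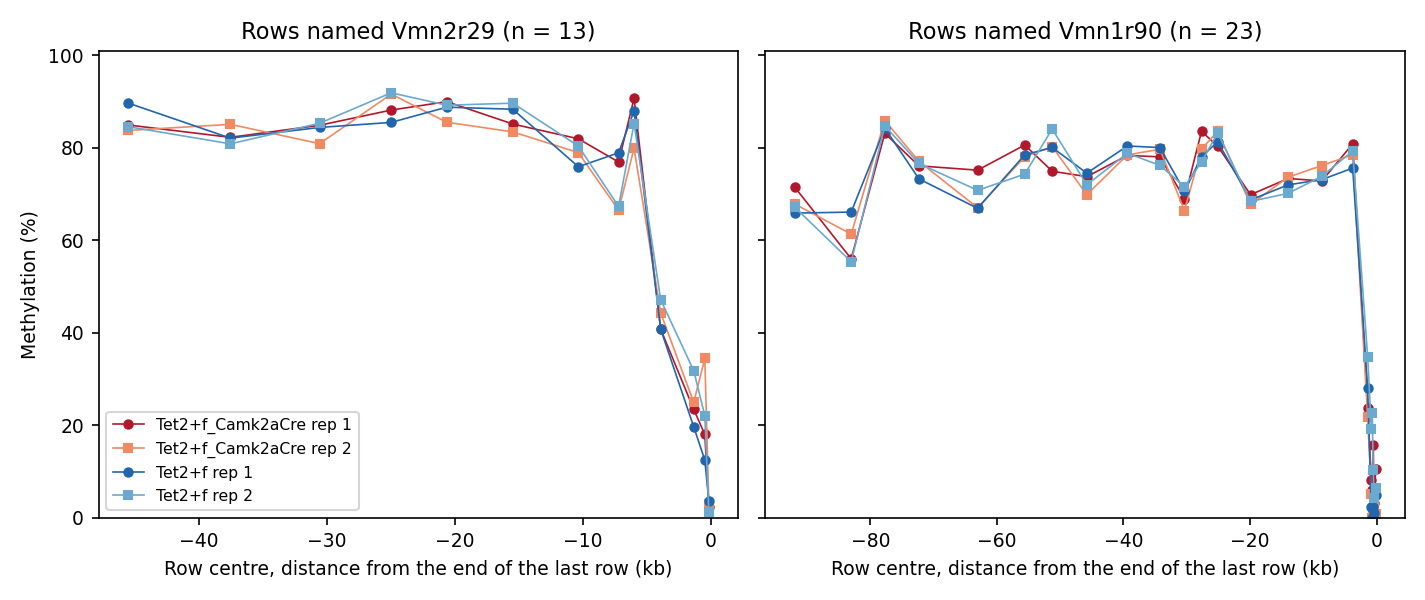
Methylation (%) of each region named Vmn2r29 (13 regions, left) and Vmn1r90 (23 regions, right) in the 4 libraries, by the distance in kb of the region's centre from the end of the last region. Levels stay above 50% over most of each stretch and drop towards 0 in all 4 libraries at its right-hand end.

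At the other end, the highest Vmn2r regions were short. A Vmn2r11 region of 846 bp had 96.0% and 94.4% in the Cre libraries, against 98.1% and 96.0% in the Tet2+f libraries. A Vmn2r87 region of 622 bp had 96.4% and 93.4% in the Cre libraries, against 96.2% and 97.3% in the Tet2+f libraries. In both, the gap between groups was under 2 points. A Vmn2r35 region of 4163 bp had 100% and 97.3% in the Cre libraries, against 83.3% and 100% in the Tet2+f libraries, and its exact values of 100% came with a range of 16.7 points. The highest Vmn1r region, over Vmn1r88 (2161 bp), had 92.5% and 89.1% in the Cre libraries, against 91.0% and 91.0% in the Tet2+f libraries. The next, Vmn1r1 and Vmn1r14, averaged 90.6% and 88.7% over the 4 libraries.

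Spread between libraries was measured as the range, the highest minus the lowest of the 4 libraries in a region. Its median over the 930 receptor regions was 5.64 points, and 109 regions (11.7%) spanned over 10 points. Other autosomal regions had a median of 5.08 points, with 10.24% over 10 points. At 5 to 10 kb the receptor regions spanned over 10 points more often, and at 2 to 5 kb they did not. Among regions of 5 to 10 kb, 56 of 564 receptor regions (9.93%) spanned over 10 points, against 4.74% of other autosomal regions and 3.54% of Olfr regions. Among regions of 2 to 5 kb the share was 7.41% of 243 receptor regions, against 7.62% of other autosomal regions. The median gap between the replicates of a group was 2.71 points for the Cre libraries and 2.46 points for the Tet2+f libraries, so neither group carried the spread alone. Depth per region is unknown, because the table gives percent values without read counts.

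The wide ranges were concentrated on chromosome 7. A cluster of 72 Vmn1r regions at chr7:20095513-24061356, holding 60 named genes, had a median range of 8.36 points and 26 regions over 10 points. The 91 Vmn2r regions at chr7:7228832-10176271 had a median of 6.57 points and 32 regions over 10 points. The 36 Vmn1r regions on chromosome 13, by contrast, had 2 regions over 10 points, and the 45 Vmn2r regions on chromosome 10 had 0.

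Regions over starts that recur in the genome spread the most. Of the 323 receptor starts, 62 had a start sequence identical over all 300 bases to that of another receptor, 60 of them on chromosome 7 and 2 on chromosome 6. They lie in 54 table regions, of which 40 carry a receptor name and 14 another gene's name, and those 14 are left out of the values that follow. The 40 receptor regions with these starts had a median range of 9.58 points, and 19 of them spanned over 10 points. The 52 receptor regions whose start differed from its closest relative by 1 to 15 single-base edits had a median of 6.16 points, with 10 over 10 points. The 189 receptor regions whose start was more distant had a median of 5.01 points, with 6 over 10 points. In regions of 5 to 10 kb the medians were 7.65 points over 17 identical starts, 5.69 points over 28 near copies and 5.18 points over 148 distant starts. In that class 35.3% of the regions with identical starts, 10.7% of those with near copies and 1.35% of the rest spanned over 10 points. The order of near copies and distant starts did not hold for the medians of Vmn1r alone at that length, which were 4.66 and 5.01 points, beside 8.10 points over identical starts. Identical starts, chromosome 7 and length moved together, since 38 of the 40 regions lie on chromosome 7, 11 exceeded 20 kb and their median length was 9539 bp, and the part of each in the spread was not tested. The median level was 72.97% over identical starts, 73.2% over near copies and 76.8% over distant starts.

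**Figure D4:**
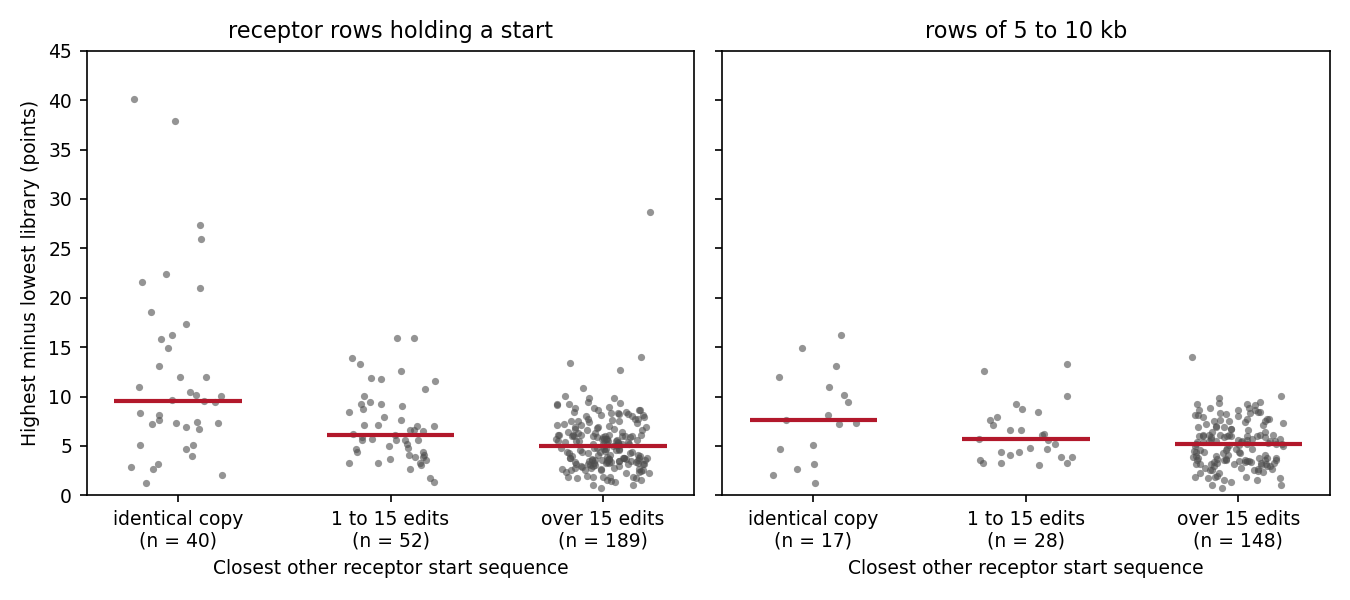
Range between the 4 libraries (points) of each receptor region that holds a receptor start, by how close the start sequence is to that of the closest other receptor, for all lengths on the left and for 5 to 10 kb on the right, with a bar at the median. The points over identical copies reach highest, with medians of 9.58 points at all lengths and 7.65 points at 5 to 10 kb.

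The 20 regions over 20 kb, 14 Vmn1r and 6 Vmn2r, are given apart because unique reads can be sparse over such stretches of repeated sequence, which the table does not show directly. Of them, 16 lie on chromosome 7 and 4 on chromosome 6, and 12 hold 2 or more RefSeq receptors, against 25 of the other 910 regions. Their mean was 73.7% and 73.2% in the Cre libraries, against 73.7% and 73.7% in the Tet2+f libraries, which was 3.01 points below that of the other receptor regions over the 4 libraries. The families went opposite ways in this, with long Vmn1r regions at a mean of 71.1% over the 4 libraries, against 74.4% for the other Vmn1r regions, and long Vmn2r regions at 79.5%, against 77.5% for the other Vmn2r regions. Their median range was 16.6 points, 14 of the 20 (70%) spanned over 10 points, and 9 of them were higher and 11 lower in the Cre libraries. Other autosomal regions over 20 kb had a median range of 10.7 points, and 52.7% of those 277 regions spanned over 10 points. Spread was wide on both sides of the limit of 20 kb. Inside it, Vmn1r139 (18603 bp) had a range of 40.1 points and Vmn1r93 (19471 bp) a range of 27.4 points. Outside it, Vmn1r155 (22501 bp) had a range of 18.6 points and Vmn1r107 (23398 bp) a range of 20.9 points.

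The longest region, named Vmn1r112 (71104 bp, over RefSeq Vmn1r132 and not over Vmn1r112), had 79.2% and 59.8% in the Cre libraries, against 100% and 59.3% in the Tet2+f libraries. Replicates of 1 group differed by over 40 points there. Vmn1r137 (65894 bp, holding 3 RefSeq receptors) had 82.2% and 80.0% in the Cre libraries, against 86.4% and 76.8% in the Tet2+f libraries. Vmn2r47 (54598 bp) had 72.4% and 78.2% in the Cre libraries, against 83.2% and 80.4% in the Tet2+f libraries. Vmn2r46 (24462 bp) had 55.6% and 75% in the Cre libraries, against 81.8% and 95.2% in the Tet2+f libraries. Vmn2r46 and Vmn2r47 thus had both Cre libraries below both Tet2+f libraries, and Vmn1r112 and Vmn1r137 overlapped.

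Vmn1r135 (46774 bp, chr7:21814584-21861357), whose start is shared with Vmn1r163, had the largest difference between groups of the long regions that the rule named. It had 87.9% and 80.0% in the Cre libraries, against 50% and 54.2% in the Tet2+f libraries, a mean of 83.9% ± 5.57 against 52.1% ± 2.95 (SD, n = 2 each). The difference of 31.9 points had the smallest p of all 930 regions in limma, at 0.00141 before adjustment and 0.937 after Benjamini-Hochberg adjustment over 849014 regions. The Vmn1r163 region (49448 bp), which shares that start sequence, had 86.7% and 73.3% in the Cre libraries, against 80.3% and 60.7% in the Tet2+f libraries, and its groups overlapped.

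The comparison of Tet2+f_Camk2aCre with Tet2+f asked whether methylation at these genes differed when Tet2 is reduced in glutamatergic cells. With limma on log2((share + 0.01) / (1 - share + 0.01)), 0 of 930 receptor regions passed an adjusted p of 0.05, as did 0 of all 849014 regions (0%), and the smallest adjusted p among receptor regions was 0.937. Before adjustment, 26 receptor regions (2.80%) had a limma p under 0.05, against 4.6% of all regions. Of these, 6 were higher in the Cre libraries (background 2.25%) and 20 were lower (background 2.35%). On the plain percent scale the unadjusted share was 6.99% of receptor regions, against 4.96% of all regions, so its place relative to the background depended on the scale. No receptor region can be called different between groups. Averaged per gene, 0 of the receptor genes passed the adjusted threshold and 25 of 319 had an unadjusted limma p under 0.05, against 0% and 5.32% of all 26848 genes, with Vmn1r112 counted under each of its 2 gene identifiers.

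Small differences leaned one way. Of the 930 regions, 44.0% were higher in the Cre libraries on the log scale of the test, against 49.2% of all regions. Both Cre libraries lay below both Tet2+f libraries in 206 receptor regions (22.2%), where 16.8% of all regions did so. They lay above both in 134 (14.4%), where 15.9% of all regions did so. Longer regions outside the family leaned this way too. At 5 to 10 kb, 23.9% of receptor regions had both Cre libraries below and 13.3% had both above. Other autosomal regions of that length had 18.55% below and 14.9% above. Neighbouring regions share genes, clusters and the same 4 libraries, so these counts are not over independent regions. In the Vmn2r family alone, 159 of 655 regions (24.3%) had both Cre libraries below and 92 (14.05%) above. In the Vmn1r family, 47 of 275 (17.1%) had both below and 42 (15.3%) above. The Vmn2r mean was 77.2% ± 0.254 in the Cre libraries and 77.8% ± 0.225 in the Tet2+f libraries (SD, n = 2 each), a difference of -0.633 points. The Vmn1r mean was 74.1% ± 0.290 in the Cre libraries and 74.3% ± 0.474 in the Tet2+f libraries (SD, n = 2 each), a difference of -0.227 points that lay within the spread of the replicates. Both Cre libraries were below both Tet2+f libraries for the Vmn2r mean and not for the Vmn1r mean. The other autosomal regions of 5 to 10 kb also had a slightly negative difference, of -0.183 points, beside -0.637 points for Vmn2r and -0.475 points for Vmn1r regions of that length, and whether these differ was not tested.

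Differences of 10 points or more were seen in 16 receptor regions (1.72%, background 0.875%), and 7 of them were over 20 kb. Among receptor regions of 20 kb or less, 9 of 910 (0.989%) reached 10 points, a share near that of all regions.

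Vmn2r118, on chromosome 17, was lower in the Cre libraries over most of its length. It averaged 79.0% and 78.7% over its 8 regions in the Cre libraries, against 83.6% and 84.8% in the Tet2+f libraries, a difference of -5.32 points. The region over its start, at chr17:55619808-55625514, had 70.6% and 71.5% in the Cre libraries, against 84.5% and 79.9% in the Tet2+f libraries. The region at chr17:55602170-55607677 had 81.3% and 83.2% in the Cre libraries, against 88.2% and 90.4% in the Tet2+f libraries. In 7 of the 8 regions the mean was lower in the Cre libraries, and in 5 both Cre libraries were below both Tet2+f libraries. Of all regions, 16.8% had both Cre libraries below. The start region and the region at chr17:55602170-55607677 are among the 5 and were named for their small p, so the count partly repeats that choice. The start region had an unadjusted limma p of 0.0143 and an adjusted p of 0.937. For the mean over the gene the limma p was 0.00279 before and 0.822 after Benjamini-Hochberg adjustment over genes, so Vmn2r118 did not pass. Neighbouring regions of 1 gene share their libraries and are not separate replicates, and the start printed above holds 0 CG.

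**Figure D5:**
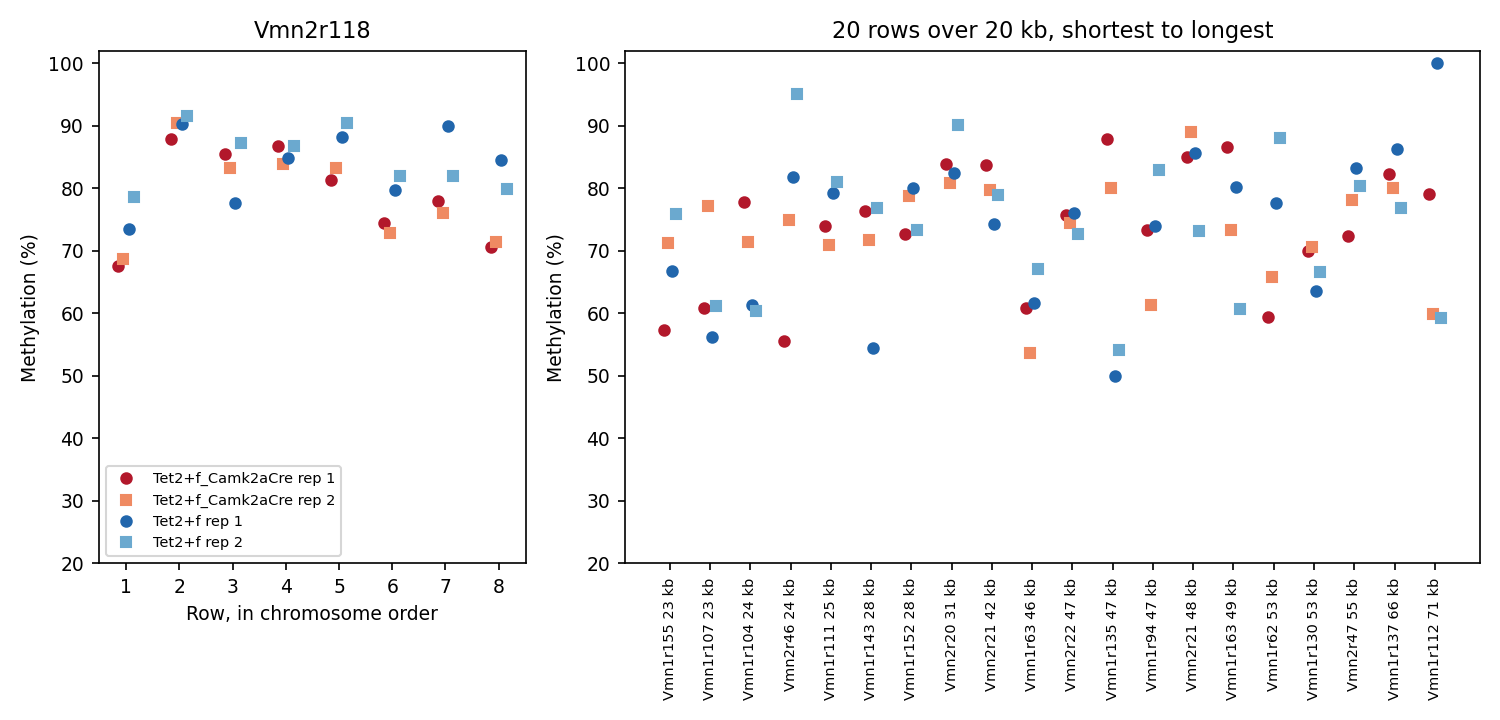
Methylation (%) in the 4 libraries of the 8 regions of Vmn2r118 in chromosome order (left) and of the 20 receptor regions over 20 kb from shortest to longest (right). In Vmn2r118 the red and orange Tet2+f_Camk2aCre symbols lie below the dark and light blue Tet2+f symbols in 5 regions, and among the long regions replicates of a group lie up to 40.7 points apart.

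Vmn2r7, a family C receptor, carries the most regions of any Vmn2r name, 37, of which 30 lie off its RefSeq gene. Its named regions went in both directions. The region with the smallest p of all shorter receptor regions, at chr3:64814423-64816627, had 85.2% and 92.0% in the Cre libraries, against 96.7% and 97.9% in the Tet2+f libraries. The region directly after it, at chr3:64816628-64820869, had 92.6% and 91.0% in the Cre libraries, against 84.0% and 86.5% in the Tet2+f libraries. These 2 neighbours, both over the RefSeq pseudogene Vmn2r-ps11, differed between groups by -8.66 and 6.56 points. Another, at chr3:64843038-64850001, had 88.9% and 88.7% in the Cre libraries, against 83.2% and 82.6% in the Tet2+f libraries. Their limma p was 0.00633, 0.0128 and 0.0175 before adjustment and 0.937 after it. Over all 37 regions, 14 were higher and 23 lower in the Cre libraries, and the gene mean differed by -1.06 points. Of Vmn1r names, Vmn1r90 had the most regions, 23, with 13 higher and 10 lower in the Cre libraries.

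Several other V2R regions named for their p or range, Vmn2r33, Vmn2r40 and Vmn2r48, lay in the chromosome 7 cluster of close copies. The named Vmn2r33 region (8624 bp) had 61.9% and 68.2% in the Cre libraries, against 79.9% and 74.3% in the Tet2+f libraries. It does not hold the start that Vmn2r33 shares with Vmn2r31. The region that does (4967 bp) had 73.8% and 69.5% in the Cre libraries, against 74.6% and 70.9% in the Tet2+f libraries, and its groups overlapped. Vmn2r40 (5134 bp, over no RefSeq receptor) had 68.4% and 59.1% in the Cre libraries, against 74.7% and 77.8% in the Tet2+f libraries. Vmn2r48 (5043 bp) had 75.004% and 71.3% in the Cre libraries, against 56.8% and 66.7% in the Tet2+f libraries. So differences of 11 to 13 points stood in both directions within this cluster, each with an adjusted limma p of 0.937. The choice by p takes regions from each direction, so it does not show a balance. Of the 91 Vmn2r regions of the cluster, 34 were higher and 57 lower in the Cre libraries. Both Cre libraries lay below both Tet2+f libraries in 26 (28.6%) and above in 8 (8.79%). Of all regions, 16.8% had both below and 15.9% both above. On chromosome 6, a Vmn2r21 region (4940 bp) had 53.9% and 73.9% in the Cre libraries, against 82.7% and 81.3% in the Tet2+f libraries, a difference of -18.1 points with a wide gap between the Cre replicates. Of pseudogenes in RefSeq, Vmn2r-ps104 was 6.59 points higher in the Cre libraries and Vmn2r-ps54 had a difference of -4.45 points. The region named Vmn2r-ps113, which RefSeq lists as the protein-coding gene Vmn2r124, was 8.45 points higher.

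Among V1R regions of 20 kb or less, Vmn1r139 (18603 bp) had the widest range, with 32.5% and 65.3% in the Cre libraries, against 72.7% and 58.4% in the Tet2+f libraries. The low value came from 1 Cre library. Vmn1r93 (19471 bp) had 65.3% and 82.5% in the Cre libraries, against 59.3% and 55.2% in the Tet2+f libraries, 16.7 points higher with an unadjusted limma p of 0.0637 and an adjusted p of 0.937. Vmn1r117 (8746 bp) had 70.7% and 67.9% in the Cre libraries, against 76.6% and 78.1% in the Tet2+f libraries, the smallest p among lower V1R regions in limma at 0.0360 (adjusted 0.937). Other V1R regions named by their p were lower at Vmn1r39, Vmn1r172 and Vmn1r6 and higher at Vmn1r70, Vmn1r148, Vmn1r32 and Vmn1r22. They differed by under 8 points, and in each the 2 Cre values did not overlap the 2 Tet2+f values. That separation largely follows from the choice by p. Of all regions, 15.9% had both Cre libraries above both Tet2+f libraries and 16.8% had both below.

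Of 62 receptor genes with 5 or more regions, 2 had every region higher in the Cre libraries and 1 had every region lower. Of all 16092 such genes, 0.46% and 0.348% did so. That background is not like for like, since the receptor genes in question have 5 or 6 regions. It also holds genes with many more regions, over which a single direction is harder to reach. Vmn2r6, of family C, averaged 83.4% and 86.6% over 6 regions in the Cre libraries, against 81.5% and 83.0% in the Tet2+f libraries. Vmn2r111 averaged 78.6% and 78.8% over 5 regions in the Cre libraries, against 75.7% and 78.4% in the Tet2+f libraries. Vmn2r101 averaged 71.6% and 70.8% over 5 regions in the Cre libraries, against 74.4% and 72.4% in the Tet2+f libraries. The limma p of these gene means was 0.142, 0.241 and 0.103 before adjustment and at least 0.961 after it, so none passed.

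Other genes of the vomeronasal pathway were read by role from the same table, and 0 of their regions passed the adjusted threshold in limma. The 8 transduction genes carry 305 regions, with 5 higher and 5 lower in the Cre libraries at an unadjusted p under 0.05 (1.64% each way, where all regions had 2.25% higher and 2.35% lower). Trpc2, the cation channel of vomeronasal neurons, averaged 87.2% and 86.9% over 19 regions in the Cre libraries, against 86.1% and 87.0% in the Tet2+f libraries. Gnai2, the partner of V1Rs that is also used widely outside the organ, averaged 45.5% and 45.8% over 16 regions in the Cre libraries, against 44.3% and 46.5% in the Tet2+f libraries. Gnao1, the partner of V2Rs and a major G protein subunit of brain, averaged 57.2% and 56.9% over 77 regions in the Cre libraries, against 56.3% and 56.4% in the Tet2+f libraries. Trpc2 thus stood above the receptors, and both G protein genes stood below them, without matching for length. Median region length was 1605 bp for Trpc2, 1423.5 bp for Gnai2 and 2105 bp for Gnao1, against 6166 bp for the receptors. Under 20% lay 4 of the 16 Gnai2 regions and 9 of the 77 Gnao1 regions.

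The H2-M1, H2-M9, H2-M10 and H2-M11 genes encode class Ib MHC molecules found with V2Rs, and 9 of the 10 listed partner genes had regions. Their 15 regions averaged 82.4% and 81.5% in the Cre libraries, against 82.5% and 83.2% in the Tet2+f libraries, with 1 region higher and 0 lower at an unadjusted p under 0.05. The 7 formyl peptide receptor genes, some of which are vomeronasal chemoreceptors in the mouse, averaged 73.8% and 74.2% over 27 regions in the Cre libraries, against 73.4% and 73.6% in the Tet2+f libraries, with 0 at that limit. The 21 Mup genes, which encode the urinary proteins that V2Rs detect, averaged 81.4% and 81.4% over 54 regions in the Cre libraries, against 81.8% and 80.8% in the Tet2+f libraries, with 1 higher (1.85%) and 3 lower (5.56%). Regulators and identity genes of these neurons, such as Bcl11b and Lhx2, averaged 54.2% and 53.7% over 248 regions of 9 genes in the Cre libraries, against 53.6% and 54.2% in the Tet2+f libraries, with 6 higher (2.42%) and 9 lower (3.63%). Of the ligand and partner regions, 0 lay under 50%.

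Starts of some cell type genes are given as a description. The region over the start of Snap25, a neuronal gene, had 0.340% and 0% in the Cre libraries, against 3.73% and 1.12% in the Tet2+f libraries. The region over the start of Wfs1, a CA1 marker, was at or under 0.694% and that of Mbp, an oligodendrocyte gene, at or under 0.901% in every library. The start of Trpc2, a marker of vomeronasal neurons, had 83.0% and 83.9% in the Cre libraries, against 87.0% and 84.9% in the Tet2+f libraries. Starts of Gfap and Rbfox3 lay between 51.9% and 65.7% in the 4 libraries. The Snap25, Wfs1 and Mbp regions are under 1 kb, a class in which other autosomal regions had a median of 5.01%. No other tissue was set beside these levels, so they do not identify the tissue. Methylation at a start does not give the share of a cell type. Mean levels of the whole table hardly differed between libraries, with 75.8% and 75.7% in the Cre libraries, against 75.6% and 75.9% in the Tet2+f libraries, over the other autosomal regions.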

How the data were processed

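The authors deposited 1 table of percent methylation per region and library. Per the submitters' processing notes, reads were handled on build mm10 with Bismark 0.19.0, Trim Galore 0.4.5, FastQC 0.11.5 and edgeR, whose roles are not stated. Per the labels' protocols, libraries were sequenced as paired reads of 150 bp. How regions were drawn and whether a coverage minimum was set is not given in the sources used here, and the table holds no read counts, so depth per region is unknown and no intervals were computed. Libraries were grouped by their titles.

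Of 849172 regions, 158 lacked a value and were not tested. limma 3.58.1 in R 4.3.3 was fitted to log2((share + 0.01) / (1 - share + 0.01)) over the other 849014, with Benjamini-Hochberg adjustment at 0.05, and was tested on simulated data. Means, ranges and sequence counts were made in Python 3.11.15 with pandas 2.3.3. Gene positions and start sequences came from RefSeq tables of GRCm38.p6, the assembly of mm10, and all 318 names matched. Starts of closest relatives were compared by edit distance. Replicate numbers were not taken as pairs, because the correlation of replicate differences between groups was 0.00648 over all regions and 0.0558 over receptor regions.

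Named regions were, per family and up to 20 kb, the 5 with the smallest p in each direction, the 3 lowest, 3 highest and 3 widest, and the gene with most regions, and over 20 kb the 3 longest and 3 widest. The 62 genes with 5 or more regions were also scanned for 1 direction. The members and lists were chosen with earlier results of these data known. Omp and B2m named no region. No genome was used.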

Additional observations from a re-analysis of the deposited data

How the results depend on the processing

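The count of receptor regions past the adjusted threshold was 0 under every setting tried, a replicate block included (0 past the threshold, 20 at an unadjusted p under 0.05 against 26 without it). The unadjusted count was 65 on the plain percent scale (6.99%, against 4.96% of all regions, where it was 2.80% against 4.6% on the log scale and 7.84% against 5.32% per gene), and lay between 18 and 28 when 1 library was left out. The share of receptor regions higher in the Cre libraries was 39.5% after averaging per gene, and between 42.6% and 47.7% with 1 library left out, the highest without Cre replicate 2. The Vmn1r difference between groups turned to 0.128 points when each library was summarised by its median region, and lay between -0.563 and 0.108 points with 1 library left out, positive without Tet2+f replicate 2. The Vmn2r difference was between -0.813 and -0.454 points with 1 library left out and -0.850 points over gene means. Vmn2r minus Vmn1r, 3.32 points, was 2.02 weighted by length, 3.13 without regions over 20 kb, 3.04 without exact 0% or 100%, 1.53 over regions on their RefSeq gene, 1.80 as a median, 0.489 over gene means, and between 3.19 and 3.39 with 1 library left out. Receptor minus other autosomal regions, 0.786 points, was -5.34 weighted by length, -2.29 without exact values, -6.30 as a median, 1.06 without regions over 10 kb, 8.24 over gene means, and between 0.687 and 0.912 with 1 library left out. Long minus other receptor regions, -3.01 points, was -3.54 at a limit of 10 kb, -1.56 at 50 kb, -2.20 as a median, and between -3.08 and -2.90 with 1 library left out. The median range of 5.64 points was 2.59 as the gap within a group. Settings chosen after seeing the data were the average per gene, single length classes (Vmn2r minus Vmn1r was -0.0169 at 5 to 10 kb; receptor minus other regions was -7.04 at 5 to 10 kb and -1.82 at 2 to 5 kb), regions under 50% left out (Vmn2r minus Vmn1r 1.997), and chromosome 7 or Vmn2r118 left out, which kept both family differences negative. The cause of these shifts was not tested. Of the 40 named regions, 10 changed direction when some library was left out. Unknown depth limits every level.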
